A study of Mus musculus with 3 samples.

Results

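The genes described here encode 9 RNA-binding proteins that control how long cytokine mRNAs last, namely *Zfp36*, *Zfp36l1*, *Zfp36l2*, *Zc3h12a*, *Zc3h12c*, *Rc3h1*, *Rc3h2*, *Elavl1* and *Khsrp*. They were chosen by name, by a rule that uses no measured value, although earlier results of these data were known, and all probes that the array files assign to these symbols were taken. This gave 9 genes of 26840 with a symbol, and 17 probes of 56605 gene probes.

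RAW 264.7 cells, an established mouse macrophage line, were measured on 1-colour microarrays, with 1 array for each of 3 conditions. In the CRL1505 + LPS and CRL1506 + LPS conditions, macrophages met *Lacticaseibacillus rhamnosus* CRL1505 or *Lactiplantibacillus plantarum* CRL1506 at 50000000 cells/mL for 24 h, the bacteria were washed off, and lipopolysaccharide (LPS, the agonist of Toll-like receptor 4) was added at 50 ng/mL. In the LPS condition, which served as control, the cells received LPS without lactobacilli. All 3 conditions therefore share the LPS challenge, whose duration is 12 h in the description of the series and 3 h in the descriptions of the samples. Macrophages without LPS were not analysed here, so the change that LPS itself brings to these genes is not described.

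Many cytokine and chemokine mRNAs carry AU-rich elements or stem-loops in their untranslated regions and are degraded soon after they are made. The proteins of the *Zfp36* family bind AU-rich elements and bring in the enzymes that shorten the poly(A) tail, while the endonuclease Regnase-1, made from *Zc3h12a*, and the Roquin proteins, made from *Rc3h1* and *Rc3h2*, act on stem-loops. HuR, the product of *Elavl1*, binds similar AU-rich sequences and is mostly known to stabilise its mRNAs, and KSRP, the product of *Khsrp*, promotes their decay. In macrophages, *Zfp36* and *Zc3h12a* are known as genes that are themselves induced by LPS and then limit the inflammatory response.

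The core of an AU-rich element is the pentamer ATTTA, and the mRNA of *Zfp36* is known to be a target of its own product. The array probes, each 60 bases long, were therefore searched for these letters on the strand that the files list. ATTTA was found in 4 of the 17 member probes, belonging to *Zfp36*, *Zfp36l1*, *Zc3h12a* and *Khsrp*, and in 8.08% of all gene probes. The *Zfp36* probe held 3 copies, not all of which fall in the window printed below. The longer TTATTTATT, which contains the pentamer and is the preferred site of the *Zfp36* proteins, was found in the *Zfp36* probe and in 0.154% of all gene probes. The windows of 30 bases below are from the 3 members whose brightest probe differed by at least 2-fold, with ATTTA in capitals.
Zfp36: ATTTAtgacgactttATTTAttgtattaag
Zfp36l1, probe 1: tttctttgtgtgaattcATTTAaaagaaaa
Zc3h12a, probe 1: aggcgagATTTAaatattttaaatgaaaaa

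On the mm9 build, to which the array files refer, the *Zfp36* probe lies at chr7:29161963-29162022, probe 1 of *Zfp36l1* at chr12:81208803-81208862 and probe 1 of *Zc3h12a* at chr4:124795870-124795929, all on the minus strand. Whether these positions are coding or untranslated was not assigned, since no mm9 annotation was used here.

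The signal at the 75th percentile of the gene spots was 743 with LPS, 517 with CRL1505 + LPS and 698 with CRL1506 + LPS, and levels are given below as the log2 of the signal over this percentile of the same array. Between 48.5% and 55.3% of gene spots were well above background, a flag set by the scanning software, with the lowest share on the CRL1505 + LPS array. That array was on a different slide and in a different scan run from the other 2, which shared both. The effect of the CRL1505 strain and that of the slide therefore cannot be told apart. Of 10 macrophage markers, 10 were well above background with LPS and 9 in each of the other conditions, where the exception was *Mrc1*. Of 4 T cell markers, *Cd4* and *Cd3e* were well above background on all 3 arrays, while *Cd3g* and *Cd8a* were not on any. Markers of B cells, neutrophils, fibroblasts and epithelial cells were also read. Among them, *Ms4a1* and *Elane* were well above background on all 3 arrays. *Ly6g*, *Mpo*, *Col1a1*, *Col1a2* and *Epcam* were so on some arrays, and the rest on none.

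There were no replicates, so no test between conditions was possible, and a gene is described as higher or lower where its ratio was at least 2-fold. The only spreads at hand were within the arrays. Repeated spots of the same probe had log2 ratios whose SD had a median of 0.048, 0.043 and 0.047 for CRL1505 + LPS against LPS, CRL1506 + LPS against LPS and CRL1505 + LPS against CRL1506 + LPS, respectively. Where a gene had several probes, the SD of their log2 ratios had a median of 0.23, 0.21 and 0.32 in the same order, and this larger value is the spread used below. Being a median, it was exceeded by many genes. A small share of them had gaps between probes above 1.41, 1.73 and 2.01, respectively. A ratio past the spread is thus not shown to be beyond noise. Neither the SD of spots nor that of probes contains biological variation. Each member probe was spotted once, and the error that the software gave for a signal was between 0.14 and 0.25 on the log2 scale for the 15 member probes that passed the background flag on every array.

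All 9 genes were expressed above background on all 3 arrays, and most differed little between conditions. With CRL1505 + LPS, *Zfp36* was higher than with LPS and *Zfp36l1* was lower by its brighter probe, while the other 7 genes were under 2-fold. With CRL1506 + LPS, *Zfp36l1* and *Zc3h12a* were lower than with LPS, each by its brighter probe, and 7 genes were under 2-fold. The 9 genes thus held 1 higher and 1 lower gene in the first comparison, where 9.93% of all genes compared were higher, 8.41% were lower and 18.3% passed 2-fold in either direction. In the second comparison they held 0 higher and 2 lower genes, where 5.67% of all genes were higher, 3.53% were lower and 9.20% passed in either direction. The median log2 ratio of the 9 genes was -0.14 with CRL1505 + LPS, beside 0.01 over all genes, and -0.11 with CRL1506 + LPS, beside -0.06. Both comparisons rest on the same LPS array.

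**Figure D1:**
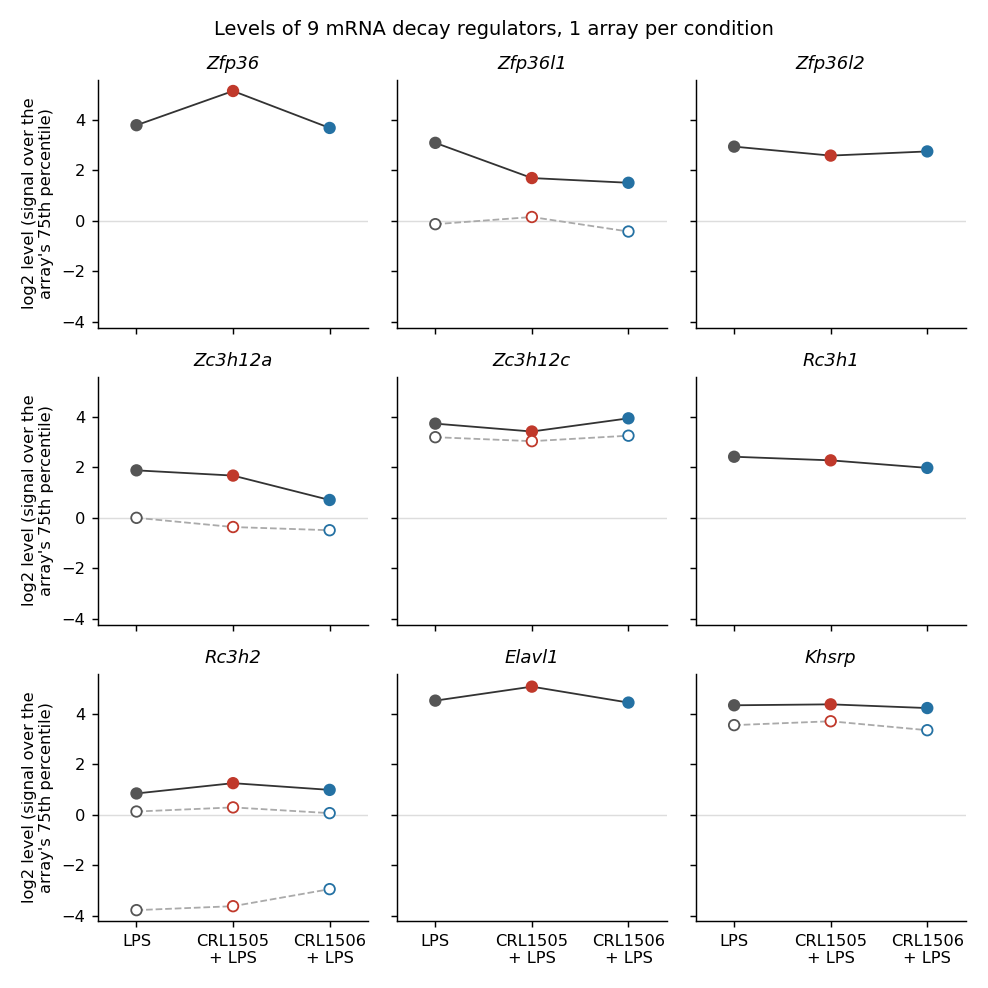
Log2 level (signal over the 75th percentile of the array) of each gene on the 3 arrays, 1 point per array, with the brightest probe filled and joined by a solid line and other probes open and joined by dashed lines. Probes that were not well above background on all arrays are not drawn, and levels can be compared along a line but not between probes. *Zfp36* stands highest with CRL1505 + LPS, and the filled line of *Zfp36l1* falls from 3.1 with LPS to 1.70 and 1.51 in the lactobacilli-treated cells.

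*Zfp36* encodes tristetraprolin, the best-known of the proteins that bring AU-rich cytokine mRNAs to decay. Its level was 3.80 with LPS, 5.15 with CRL1505 + LPS and 3.69 with CRL1506 + LPS, from a single probe. The CRL1505 + LPS array was thus well above both others, which lay close together. The ratio of CRL1505 + LPS to LPS was 2.56-fold (log2 ratio 1.36), and 6.11% of all genes compared were raised at least as much. CRL1506 + LPS differed from LPS by -0.11 on the log2 scale, which is within the spread of 0.21. Between the lactobacilli, *Zfp36* was 2.76-fold higher with CRL1505 + LPS (log2 ratio 1.47), and by the main scaling it was the only member past 2-fold, where 9.02% of all genes were higher, 7.47% were lower and 16.5% passed in either direction. On the CRL1506 + LPS array, 11 of the 20 spots nearest to the *Zfp36* spot had a mean pixel signal more than 0.2 (log2) above their median, against 0 of 20 on each of the other arrays. The *Zfp36* spot itself had a difference of 0.05 there, and the part of its surroundings in the level was not tested. The comparison of CRL1505 + LPS with LPS does not use that array.

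The size of the *Zfp36* difference depended on the scaling of the arrays. Over 7 alternative normalizations its log2 ratio for CRL1505 + LPS against LPS ran from 0.85, when arrays were scaled by spike-in probes, to 1.65, when they were scaled by the median, and it was past 2-fold in 6 of 7. For CRL1505 + LPS against CRL1506 + LPS it ran from 1.08 to 1.96 and was past 2-fold in 7 of 7. With scaling by the median, the brighter probe of *Zc3h12a* (1.46) and *Elavl1* (1.13) also passed 2-fold between the strains, which made 3 members in place of 1.

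*Zfp36l1*, also named BRF1, encodes a close relative of tristetraprolin that binds the same kind of element. Its brighter probe had a level of 3.1 with LPS, 1.70 with CRL1505 + LPS and 1.51 with CRL1506 + LPS. Both lactobacilli-treated arrays were below the LPS array, and they differed from each other by 0.19, within the spread of 0.32. The level was 2.63-fold lower with CRL1505 + LPS (log2 ratio -1.40) and 3.00-fold lower with CRL1506 + LPS (log2 ratio -1.58). Of all genes compared, 4.08% and 1.47%, respectively, were lowered at least as much. These ratios stayed past 2-fold in 7 of 7 normalizations, with ranges of -1.90 to -1.10 and -1.78 to -1.5.

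The second probe of *Zfp36l1* did not show this difference. It had a level of -0.13 with LPS, 0.16 with CRL1505 + LPS and -0.42 with CRL1506 + LPS. Its log2 ratio to LPS was 0.28 with CRL1505 + LPS and -0.29 with CRL1506 + LPS, so that the probes disagreed in direction for the first strain and in size for the second. For CRL1505 + LPS against CRL1506 + LPS, its log2 ratio was 0.58, past the spread of 0.32 and under 2-fold. Both probes are assigned to the transcript NM_007564, and probe 2 lies 2063 bases from probe 1, at chr12:81210866-81210925 of mm9. On the minus strand this places probe 1 nearer to the 3′ end. The gap between the ratios of the 2 probes to LPS was 1.68 with the first strain and 1.29 with the second. Of genes with several measured probes, 3.12% of 5514 and 11.3% of 6147, respectively, had a gap at least as large. With the mean over both probes, the log2 ratio was -0.56 with CRL1505 + LPS and -0.94 with CRL1506 + LPS, both under 2-fold. The lower level of *Zfp36l1* is therefore a measurement of its brighter probe and cannot be stated for the gene as a whole.

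*Zfp36l2* encodes a further protein of this family. Its single probe gave a level of 2.95 with LPS, 2.59 with CRL1505 + LPS and 2.76 with CRL1506 + LPS. Its log2 ratio to LPS was -0.36 and -0.19, respectively, and each step in the order of the 3 arrays was within the spread between probes, although the LPS and CRL1505 + LPS arrays at its ends were not.

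**Figure D2:**
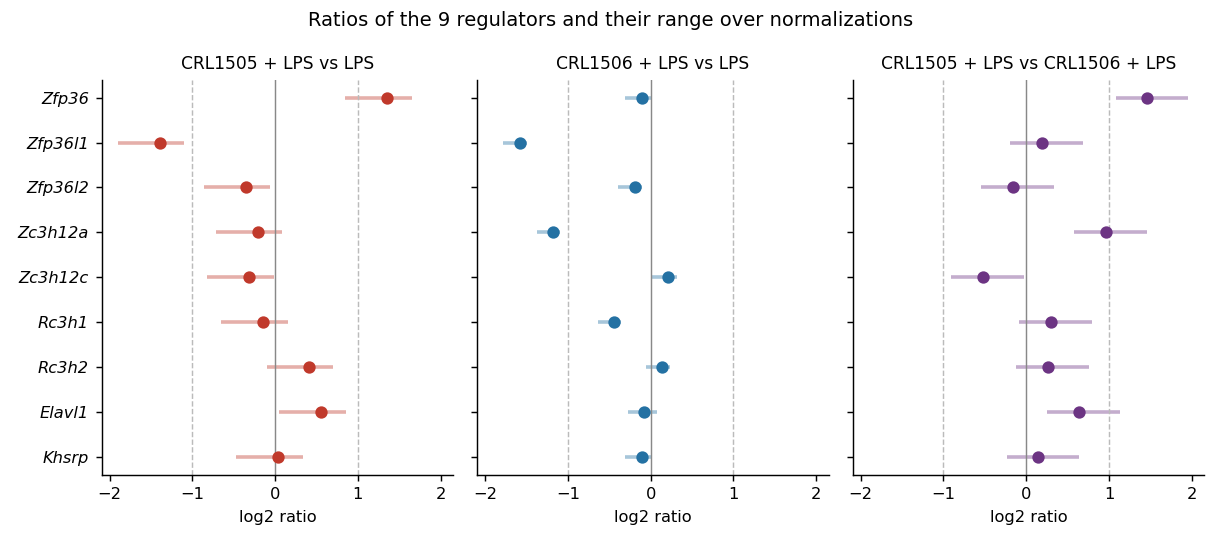
Log2 ratios of the 9 genes in the 3 comparisons, with points for the main values and bars from the lowest to the highest of 7 alternative normalizations. Dashed lines mark 2-fold, and the bars are no measure of biological variation. *Zfp36l1* lies beyond the left dashed line over its whole bar in both strains, and the *Zfp36* bar for CRL1505 + LPS against LPS, from 0.85 to 1.65, crosses the right one.

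*Zc3h12a* encodes Regnase-1, an endonuclease that cleaves inflammatory mRNAs such as that of *Il6*. Its brighter probe had a level of 1.88 with LPS, 1.67 with CRL1505 + LPS and 0.71 with CRL1506 + LPS. The CRL1506 + LPS array was the lowest, and the other 2 differed by less than the spread of 0.23, with a log2 ratio of -0.21. Against LPS, the level was 2.26-fold lower with CRL1506 + LPS (log2 ratio -1.18), and 2.59% of all genes were lowered at least as much. This ratio was past 2-fold in 7 of 7 normalizations, from -1.38 to -1.09. Between the strains, this probe of *Zc3h12a* was 1.96-fold higher with CRL1505 + LPS (log2 ratio 0.97), just under the threshold.

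The second probe of *Zc3h12a* was also lower than LPS in both lactobacilli-treated conditions, by less than probe 1 with CRL1506 + LPS and by more with CRL1505 + LPS. Its level was 0.00 with LPS, -0.36 with CRL1505 + LPS and -0.49 with CRL1506 + LPS. The log2 ratio to LPS was -0.49 with CRL1506 + LPS and -0.36 with CRL1505 + LPS, and neither was past 2-fold, although both were past the spread. For CRL1505 + LPS against CRL1506 + LPS, the log2 ratio of probe 2 was 0.13, within the spread of 0.32. With the mean over both probes, the log2 ratio was -0.83 for CRL1506 + LPS against LPS and 0.55 between the strains, both under 2-fold. Unlike probe 1, which the files assign to the RefSeq transcript NM_153159, probe 2 is assigned to the cDNA AK163109 and lies 7741 bases away, at chr4:124803611-124803670 of mm9.

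*Zc3h12c*, a less studied relative of Regnase-1, had a level of 3.74 with LPS, 3.42 with CRL1505 + LPS and 3.95 with CRL1506 + LPS. It was the only member that stood above LPS by its brightest probe with CRL1506 + LPS and below it with CRL1505 + LPS, with log2 ratios of 0.21 and -0.31. The first of these was within the spread and the second was past it, and both were under 2-fold. A second probe, 164 bases away, gave 0.06 and -0.16 in the same order. Another probe did not pass the background flag on any array.

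By their brightest probes, the Roquin genes were under 2-fold in every comparison. *Rc3h1*, which encodes Roquin-1, had a level of 2.42 with LPS, 2.28 with CRL1505 + LPS and 1.98 with CRL1506 + LPS. Its log2 ratio to LPS was -0.14 with CRL1505 + LPS, within the spread, and -0.44 with CRL1506 + LPS, past the spread and under 2-fold. *Rc3h2*, which encodes Roquin-2, had a level of 0.84 with LPS, 1.25 with CRL1505 + LPS and 0.98 with CRL1506 + LPS. Its log2 ratio to LPS was 0.41 and 0.14, respectively, and the first of these turned to -0.10 when arrays were scaled by spike-in probes. Its second probe gave 0.16 and -0.06. A further, dim probe of *Rc3h2* gave 0.16 with CRL1505 + LPS and 0.83 with CRL1506 + LPS. The last probe, also dim, was well above background with CRL1506 + LPS only, where it was at least 2.01-fold higher than with LPS. Both dim probes were highest with CRL1506 + LPS, unlike the brightest probe.

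*Elavl1* had a level of 4.52 with LPS, 5.08 with CRL1505 + LPS and 4.45 with CRL1506 + LPS. As for *Zfp36*, the CRL1505 + LPS array was the highest, but the log2 ratio to LPS was 0.56, a 1.47-fold difference, and fell to 0.05 when arrays were scaled by spike-in probes. With CRL1506 + LPS its log2 ratio was -0.08, within the spread. *Khsrp* was the least variable member, with levels of 4.34, 4.38 and 4.23 for LPS, CRL1505 + LPS and CRL1506 + LPS. Its log2 ratio to LPS was 0.04 with CRL1505 + LPS and -0.11 with CRL1506 + LPS. A second probe gave 0.15 and -0.20.

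**Figure D3:**
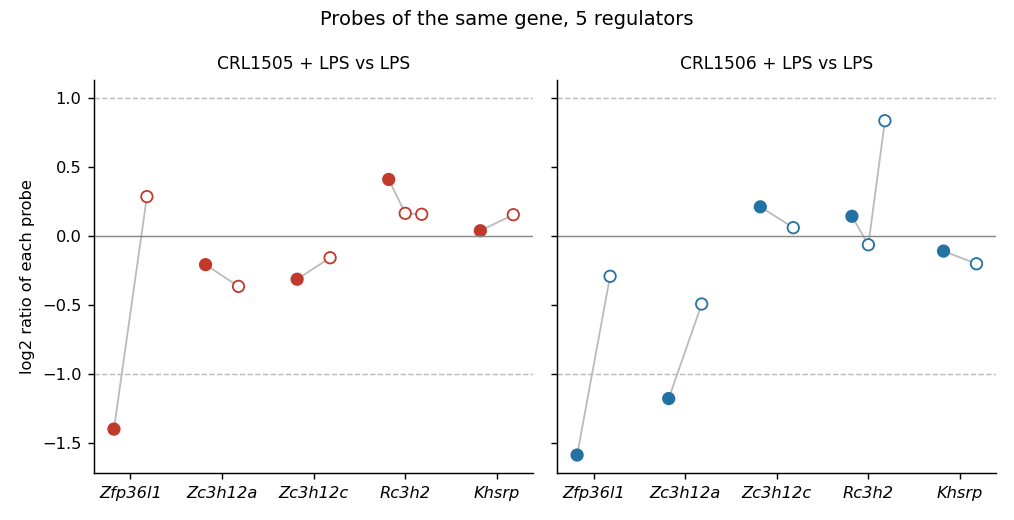
Log2 ratio to LPS of every probe that was well above background on all arrays, for the 5 genes with more than 1 such probe, with the brightest probe filled, the others open, and dashed lines at 2-fold. The probes of *Zfp36l1* lie 1.68 apart with CRL1505 + LPS and 1.29 apart with CRL1506 + LPS, whereas those of *Zc3h12c* and *Khsrp* lie close together.

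The region before the start of each gene was read from RefSeq promoter sequences on the GRCm38.p6 build, which is not the build of the probe positions. An entry was matched for 8 of the 9 genes, with 2 for *Zc3h12c*, and the unmatched gene was *Zfp36l2*. The 250 bases before the start are printed for the 3 genes whose brightest probe differed by at least 2-fold. They are on the strand of the gene, with matches to 8 motifs in capitals.
Zfp36 (chr7:28379229-28379478, minus strand): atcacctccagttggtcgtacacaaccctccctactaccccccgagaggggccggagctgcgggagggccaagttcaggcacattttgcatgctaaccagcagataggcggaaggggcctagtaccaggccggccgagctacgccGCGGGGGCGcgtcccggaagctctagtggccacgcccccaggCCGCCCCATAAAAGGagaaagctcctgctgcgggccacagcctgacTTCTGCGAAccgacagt
Zfp36l1 (chr12:80113014-80113263, minus strand): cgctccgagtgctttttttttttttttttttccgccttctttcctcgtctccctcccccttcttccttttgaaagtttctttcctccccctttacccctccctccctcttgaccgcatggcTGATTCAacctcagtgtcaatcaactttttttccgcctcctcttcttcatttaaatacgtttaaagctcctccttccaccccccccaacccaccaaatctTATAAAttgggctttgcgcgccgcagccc
Zc3h12a (chr4:125127882-125128131, minus strand): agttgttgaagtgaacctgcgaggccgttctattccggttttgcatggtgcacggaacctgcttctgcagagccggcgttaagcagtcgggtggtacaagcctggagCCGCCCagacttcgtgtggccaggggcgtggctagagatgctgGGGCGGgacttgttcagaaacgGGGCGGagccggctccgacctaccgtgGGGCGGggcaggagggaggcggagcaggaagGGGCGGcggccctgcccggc

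Both strands were searched for the EGR site GCGNGGGCG, the CArG box bound by serum response factor, the kappaB consensus, the AP-1 site TGANTCA, the cyclic AMP response element TGACGTCA, the STAT site TTCNNNGAA, the GC box GGGCGG and the TATA box TATAAA. In *Zfp36* the matches were 1 EGR site, 1 STAT site, and a GC box and a CArG box that overlap by a single base and print as one run of capitals. Over all 32851 promoter windows of this length, 4.70% held the EGR site, 7.02% the STAT site, 32.7% the GC box and 1.47% the CArG box. The *Zfp36l1* window held 1 AP-1 site and 1 TATA box, found in 6.75% and 12.4% of windows, and that of *Zc3h12a* held 5 GC boxes and no other motif of the set. Among genes under 2-fold by their brightest probes, the *Rc3h1* window also held an AP-1 site and GC boxes. The *Khsrp* window and 1 of the *Zc3h12c* windows held a GC box, and those of *Rc3h2* and *Elavl1* held no match. The kappaB consensus, found in 3.90% of windows, and TGACGTCA, found in 1.55%, matched none of the 9 member windows. These matches describe letters in a short window and were not linked to any measured binding.

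The enzymes that carry out decay were taken as a list of 46 genes for deadenylation, decapping, 5′ to 3′ decay and the exosome, all of which could be compared. With CRL1505 + LPS, 1 was higher and 0 were lower, beside 9.93% and 8.41% of all genes, with a median log2 ratio of 0.06 beside 0.01. These counts followed the scaling, with 4 higher when arrays were scaled by the median, and 0 higher and 4 lower when they were scaled by spike-ins. With CRL1506 + LPS, 1 was higher and 0 were lower, beside 5.67% and 3.53% of all genes, with a median of -0.08 beside -0.06, and 0 were higher when arrays were scaled by the median. For CRL1505 + LPS against CRL1506 + LPS, 4 of 46 were higher and 0 lower, beside 9.02% and 7.47% of all genes, with a median of 0.13 beside 0.03. That count was not repeated under other scalings. *Dcp2*, the decapping enzyme, had levels of 1.55 with LPS, 2.68 with CRL1505 + LPS and 1.89 with CRL1506 + LPS, and was 2.19-fold higher with CRL1505 + LPS. *Lsm1*, which helps decapping, had levels of 1.68, 1.92 and 2.85 in the same order, and was 2.25-fold higher with CRL1506 + LPS, the call that is lost with scaling by the median. *Exosc9*, an exosome subunit, was 1.99-fold higher with CRL1505 + LPS and had a log2 ratio of -0.22 with CRL1506 + LPS.

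Other RNA-binding proteins and signaling proteins that act on cytokine mRNAs formed a list of 26 genes. With CRL1505 + LPS, 3 of 23 compared were higher and 0 lower, beside 9.93% and 8.41% of all genes, which is a count near the background. The median log2 ratio was 0.38 beside 0.01 over all genes, and 7 were higher when arrays were scaled by the median. With CRL1506 + LPS, 0 of 22 were past 2-fold in either direction, beside 9.20% of all genes, and the median was -0.08 beside -0.06. For CRL1505 + LPS against CRL1506 + LPS, 7 of 23 were higher and 0 lower, beside 9.02% and 7.47% of all genes. The median there was 0.49 beside 0.03, and this count was not repeated under other scalings. *Igf2bp2*, which binds and protects mRNAs, had levels of -0.05 with LPS, 1.56 with CRL1505 + LPS and 0.38 with CRL1506 + LPS, a 3.06-fold difference for the first strain. *Malt1*, the protease that cleaves Regnase-1 in lymphocytes, was 2.28-fold higher with CRL1505 + LPS and had a log2 ratio of -0.16 with CRL1506 + LPS. The other higher gene was *Igf2bp1*, which was well above background with CRL1505 + LPS only and at least 10.2-fold higher than with LPS. *Arid5a*, which stabilises the mRNA of *Il6*, was 1.97-fold higher with CRL1505 + LPS and had a log2 ratio of 0.09 with CRL1506 + LPS.

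Transcripts named as targets of the 9 proteins were taken as a list of 30 genes, of which 29 could be compared with LPS. With CRL1505 + LPS, 13 were higher and 1 was lower, beside 9.93% and 8.41% of all genes. When arrays were scaled by the median, 15 were higher, and with spike-ins 10 were higher and 3 were lower. By the main scaling, the median log2 ratio was 0.82 beside 0.01 over all genes. With CRL1506 + LPS, 4 were higher and 3 were lower, beside 5.67% and 3.53% of all genes, with a median of -0.22 beside -0.06. Between the strains, 17 of 30 were higher with CRL1505 + LPS and 0 were lower, beside 9.02% and 7.47% of all genes, with a median of 1.17 beside 0.03. This count was not repeated under other scalings, which can take ratios near the threshold under it. The counts are those of 1 array against another, and the list was not tested against other genes.

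Among cytokines, *Il6* had levels of 2.98 with LPS, 7.23 with CRL1505 + LPS and 5.33 with CRL1506 + LPS. Both lactobacilli-treated arrays were above LPS, by 19-fold and 5.10-fold, respectively. *Csf3*, the granulocyte growth factor, was 11.6-fold and 5.09-fold higher. *Ifnb1*, which encodes interferon-β, was 11.0-fold and 4.97-fold higher. These are secreted factors, as is *Lcn2*, an iron-trapping protein of innate defence, which was 15.1-fold and 3.12-fold higher. The same 4 genes made up all those that were higher with CRL1506 + LPS.

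No other cytokine of the list was 2-fold higher with CRL1506 + LPS. *Il1a* had a log2 ratio to LPS of 3.33 with CRL1505 + LPS and -0.25 with CRL1506 + LPS. For the anti-inflammatory *Il10* the log2 ratios were 2.97 and -0.08, in the same order here and in the rest of this paragraph. *Il1b*, an inflammasome substrate, was just past 2-fold in opposite directions by the main scaling, at 1.07 and -1.04. Both values lie close to the threshold, and a scaling that shifts a whole array can take either under it. *Il23a* had log2 ratios of 0.94 and -0.31. *Il12b*, which encodes the subunit that IL-12 and IL-23 share, had -0.70 and -0.85. *Tnf*, the classical target of tristetraprolin, had levels of 7.09 with LPS, 7.24 with CRL1505 + LPS and 6.70 with CRL1506 + LPS. Its log2 ratios of 0.15 and -0.39 were both under 2-fold. *Csf2* was marked as an outlier spot on the LPS array and was compared between the strains only, where it was 6.08-fold higher with CRL1505 + LPS.

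No chemokine of the list was 2-fold higher with either strain. *Cxcl1* was at least 3.47-fold lower with CRL1505 + LPS, where its probe was not well above background, and 3.47-fold lower with CRL1506 + LPS. *Cxcl2* had log2 ratios of 0.82 with CRL1505 + LPS and -0.37 with CRL1506 + LPS. *Cxcl10*, *Ccl2*, *Ccl3* and *Ccl4* had log2 ratios between 0.38 and 0.47 with CRL1505 + LPS, and between -0.03 and 0.15 with CRL1506 + LPS. Before scaling, the signal of each of these genes was lower on the CRL1505 + LPS array than on the LPS array. The direction of their ratios for CRL1505 + LPS therefore rests on the scaling.

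Among enzymes and regulators, *Nos2*, the inducible nitric oxide synthase, had levels of 2.24 with LPS, 5.64 with CRL1505 + LPS and 1.55 with CRL1506 + LPS. It was 10.5-fold higher with CRL1505 + LPS and had a log2 ratio of -0.70 with CRL1506 + LPS. *Ptgs2*, the prostaglandin-forming COX-2, had log2 ratios of 1.63 and -0.39. The phosphatase gene *Dusp1*, which restrains p38 signaling, had 2.06 and 0.72. *Fos*, a subunit of AP-1, had 1.76 and 0.13. The early response gene *Ier3* had 1.40 and 0.01, and the kinase gene *Pim1* had 1.26 and -0.22.

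The remaining targets were under 2-fold with CRL1505 + LPS. The NF-κB family genes *Nfkbiz*, *Nfkbid* and *Rel* had log2 ratios of 0.47, 0.28 and 0.43 with CRL1505 + LPS, and of -0.65, -0.53 and -0.47 with CRL1506 + LPS. *Myc* had 0.34 and -0.56, and *Plaur*, the urokinase receptor, had 0.37 and -0.13. *Icosl*, a costimulatory ligand, had -0.57 and -1.32, which was 2.49-fold lower with CRL1506 + LPS. *Tnfrsf4*, a Roquin and Regnase-1 target known from T cells, had 0.04 and 0.72.

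**Figure D4:**
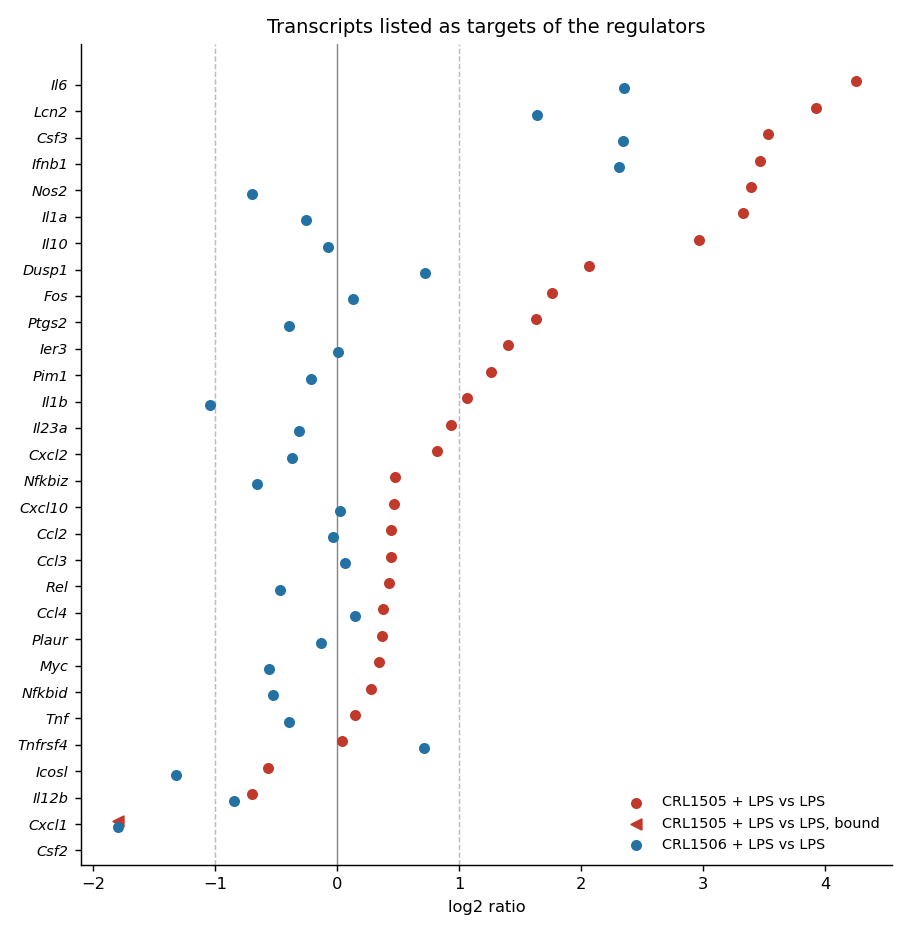
Log2 ratio to LPS of the listed target transcripts with CRL1505 + LPS and CRL1506 + LPS, ordered by the CRL1505 + LPS value, with dashed lines at 2-fold and a triangle for a bound. *Il6*, *Lcn2*, *Csf3* and *Ifnb1* lie beyond 2-fold for both strains, *Csf2* has no ratio to LPS, and both comparisons use the same LPS array.

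The genes whose pair of ratios to LPS was most like that of the 2 most variable members were found among 13114 other genes well above background on all 3 arrays. For *Zfp36* these were *Gabrr2*, *Serpina3f* and *Lgals12*, at Euclidean distances of 0.020, 0.026 and 0.040 on the log2 scale, and 22 genes lay within 0.1. For the brighter probe of *Zfp36l1* they were *Tmem199*, *Cd55* and *Ccdc43*, at distances of 0.13, 0.14 and 0.15, and 0 genes lay within 0.1. Likeness over 3 arrays is a description of these arrays only.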

How the data were processed

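RNA of RAW macrophages was measured on 3 one-colour arrays (LPS, CRL1505 + LPS, CRL1506 + LPS). The authors deposited the scanner output of each array, an intensity per spot with background subtracted and not normalized between arrays. The files carry Feature Extraction version 12.0.3.1 and positions on mm9. A deposited table of log2 values, normalized between arrays by the authors, was an alternative. Submitters' processing notes name limma.

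From each log2 intensity, the 75th percentile over the gene spots of the same array was subtracted. Outlier spots were left out, repeated spots were averaged, and the brightest probe stood for a gene. Probes well above background on neither array compared were left out, and with 1 dim side the ratio is a bound, taken against the higher of the dim signal and the lowest signal well above background. Genes were counted at a ratio of at least 2-fold, a threshold of the study's methods. The t-test of the methods could not be run on single arrays. The number of arrays limits the precision.

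The members, lists and naming rule were chosen with earlier results of these data known. All 9 members were named, with the 3 genes of each list that had the largest log2 ratio to LPS in either direction and were well above background on all arrays, and all target transcripts. *Igf2bp1* was named after its value was seen. Scripts ran in Python 3.11.15 and R 4.3.3 with limma 3.58.1, and the ratio and count steps were checked on simulated data. Alternatives were other scalings, background correction, filters, thresholds and probe rules.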

Additional observations from a re-analysis of the deposited data

How the results depend on the processing

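The count of members past 2-fold with CRL1505 + LPS against LPS was 2, and became 0 at 4-fold, 1 with spike-in scaling and 1 with the mean over probes. With CRL1506 + LPS against LPS it was 2, and became 0 at 4-fold and 0 with the mean over probes. Between the strains it was 1, and became 3 at 1.5-fold, 0 at 4-fold and 3 with scaling by the median, where *Zc3h12a* and *Elavl1* passed. With the second brightest probe (chosen after seeing the data) the log2 ratio of *Zfp36l1* with CRL1505 + LPS turned to 0.28. Of 339 ratios of single members under alternatives, 292 moved by less than the spread between probes and 47 by more. The 292 include ratios that could not move. The rules on dim, outlier and uneven spots touched no brightest probe of a member, and the mean over probes changes nothing for genes with 1 probe. The 292 are therefore no measure of robustness. The sign changed in 28, of which 27 belonged to ratios of at most 0.41 in size and 1 was that of *Zfp36l1*.

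The decay enzymes higher with CRL1505 + LPS numbered 1, then 4 with scaling by the median and 0 with spike-ins, where 4 were lower instead of 0. Those higher with CRL1506 + LPS numbered 1, then 0 with the median. The other regulators higher with CRL1505 + LPS rose from 3 to 7 with the median. The targets higher with that strain numbered 13, then 15 with the median and 10 with spike-ins, and those lower rose from 1 to 3 with spike-ins. The list counts between the strains were not repeated under other scalings.

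Scaling by the median shifted the median log2 ratio of all genes from 0.01 to 0.33 for CRL1505 + LPS against LPS, from -0.06 to -0.26 for CRL1506 + LPS against LPS and from 0.03 to 0.57 between the strains. Spike-ins gave -0.48, -0.18 and -0.35. Of all genes past 2-fold, 54.1%, 61.6% and 54.7% were higher in these comparisons, 76.1%, 43.4% and 89.0% with the median, and 20.1%, 51.4% and 23.9% with spike-ins. No paired analysis was possible because each condition had 1 array, and no replicate could be left out.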
